A study of Mus musculus with 6 samples.

Results

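The histone genes described here are the 47 genes whose array names begin with Hist1h, Hist2h, Hist3h or Hist4h, or with H2af or H3f, or are H1f0 or H1fx, out of 28300 named genes on the array. Of these, 36 are replication-dependent genes of the histone clusters and 11 are named for histone variants or the linker histones H1f0 and H1fx. They were chosen by name and not by their values. Total RNA came from satellite cells, the stem cells of muscle fibres, of skeletal muscle of female mice, labelled as proliferating. The Magic-F1 group of 3 samples came from Magic-F1+/+ mice, which carry an engineered ligand of the receptor MET derived from hepatocyte growth factor. The 3 control samples carry the word MLC3F in their titles, with its meaning not given in the sources used here, and the labels name no promoter of the transgene, strain or age. A single-colour Agilent array was used for each sample, and the question is which transcripts differ by genotype. The labels call them biological triplicates but name no separate animals or cultures, so p-values cover only the spread among these arrays, and it may be technical. The source name of every sample ends in rep1, and the replicate numbers used here were taken from the sample titles.

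Histones package DNA into nucleosomes, with H2A, H2B, H3 and H4 in the core and H1 on the linker between cores. The replication-dependent genes lie in clusters and are transcribed mainly in S phase, when new DNA has to be packaged. Their messages end in a stem-loop bound by the protein Slbp in place of a poly(A) tail. Variant histones such as H2A.Z and macroH2A are mostly made throughout the cell cycle from polyadenylated messages, and several are placed at chosen sites by their own chaperones. Some cluster genes, Hist1h1c among them, can also make polyadenylated messages in cells that leave the cycle. The priming of the reverse transcription decides how well messages without a tail are copied, and it is not stated in the labels.

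Histone genes of a type are near copies of each other, so the probes are shown first: each is 60 bases long, read from the array files in the sense of the message, and capitals mark the longest run that all probes of a set share. The first set holds probes for genes of histone H2B.
Hist1h2bk: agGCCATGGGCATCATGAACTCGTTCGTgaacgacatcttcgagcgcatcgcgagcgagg
Hist1h2bm: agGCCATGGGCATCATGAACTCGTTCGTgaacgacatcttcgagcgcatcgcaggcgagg
Hist3h2bb: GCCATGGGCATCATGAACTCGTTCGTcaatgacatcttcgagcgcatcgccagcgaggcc
The probes of Hist1h2bk and Hist1h2bm match at 58 of 60 bases, and RefSeq's symbol for Hist3h2bb, H2bu1-ps, is that of a pseudogene. The next set, for H2A, covers the start of the coding sequence.
Hist1h2ai: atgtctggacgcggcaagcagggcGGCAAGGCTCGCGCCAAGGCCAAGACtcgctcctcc
Hist1h2ak: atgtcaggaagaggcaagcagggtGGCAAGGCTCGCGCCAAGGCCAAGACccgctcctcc
Hist1h2af: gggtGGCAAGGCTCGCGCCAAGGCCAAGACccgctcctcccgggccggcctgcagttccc
A further H2A set lies towards the end of the coding sequence and includes the variant gene H2afj.
Hist1h2aa: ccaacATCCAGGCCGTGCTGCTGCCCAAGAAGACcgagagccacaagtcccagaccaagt
Hist1h2af: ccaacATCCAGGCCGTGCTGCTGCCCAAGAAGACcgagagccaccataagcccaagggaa
H2afj: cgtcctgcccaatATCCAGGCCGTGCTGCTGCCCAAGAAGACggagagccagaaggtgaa
The H4 probes form 2 sets, the first sharing 50 bases and the other 21.
Hist1h4d: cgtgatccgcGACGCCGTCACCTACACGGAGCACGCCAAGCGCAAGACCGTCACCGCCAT
Hist1h4f: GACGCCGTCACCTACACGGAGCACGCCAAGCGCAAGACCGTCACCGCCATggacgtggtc
Hist1h4d: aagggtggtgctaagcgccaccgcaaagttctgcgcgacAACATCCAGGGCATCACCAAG
Hist1h4a: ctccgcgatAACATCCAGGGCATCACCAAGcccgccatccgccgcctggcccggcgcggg
A signal from any of these probes may come from several genes of its family, and the values below are given by the gene the array names.

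Across the histone genes, the genes of histones H1, H2A and H3 were mostly lower in the Magic-F1 samples, those of H2B mostly higher and those of H4 split. A probe was tested when all 3 arrays of a group, or of both, read it well above background, and 40 of the 47 genes had such a probe. A gene passed the test (was called) at an adjusted p under 0.05 in limma's test, with Benjamini-Hochberg adjustment over all 21186 tested probes. Of the 30 tested replication-dependent genes, 16 were called lower and 12 higher, with a median log2 change of −0.42. Of the 10 tested variant genes, 9 were called lower and 1 higher, with a median of −0.81. Over all 14901 tested genes, 47.7% were called lower, 40.6% were called higher and the median was −0.15. The share of replication-dependent genes called higher, 40%, was thus near that of all genes, and their share called lower was 53.3%. The counts of each histone type below are to be read beside these shares of all genes. The groups did not overlap in any of the 40 tested histone genes, against 89.8% of all genes. In RNA of whole samples, fewer cells of a type and less RNA per cell cannot be told apart.

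Values are log2 signals relative to each array's 75th percentile, which was 348 ± 7.78 on Magic-F1 arrays and 282 ± 8.93 on control arrays (SD, n = 3 each). Changes are Magic-F1 minus control. The share of spots well above background was 49.2% to 52.0% per array, 0 spots were saturated, and the number of arrays limits the precision. With the arrays scaled to the spiked-in viral transcripts instead, all changes rose by the same step, the median of all genes became 0.31 and the calls split into 5264 lower and 7702 higher. On that scale 13 replication-dependent genes were called lower and 12 higher, with a median of 0.04, and 7 variant genes were lower and 1 higher, with a median of −0.35.

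**Figure D1:**
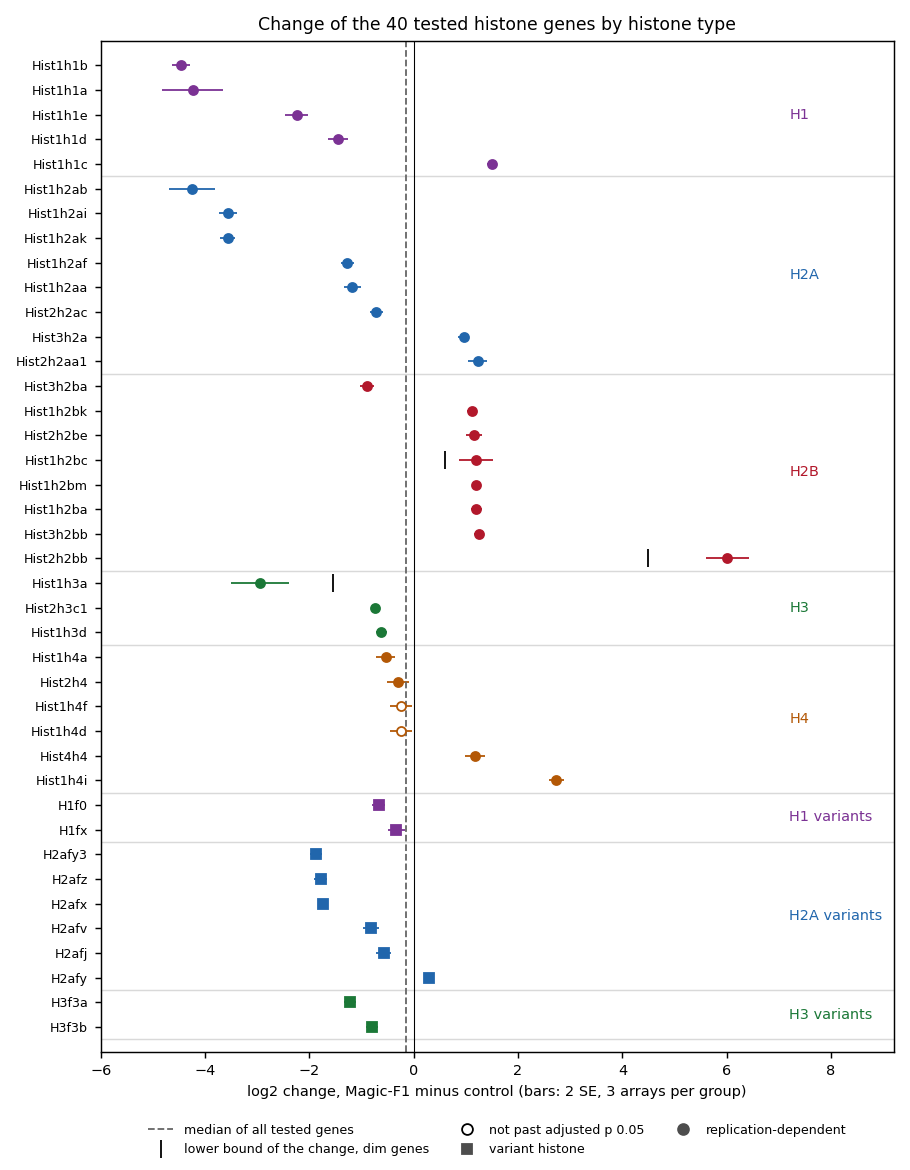
Log2 change, Magic-F1 minus control, of the 40 tested histone genes grouped by histone type, with bars of 2 SE over 3 arrays per group. Circles are replication-dependent genes and squares variant genes, open symbols did not pass adjusted p 0.05, and vertical ticks mark the lower bound for genes not above background in 1 group. H1 and H2A genes reach −4.46 and −4.25, while 7 of 8 H2B genes lie to the right of 0.

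The linker histones H1 held the largest fall of any histone gene and 1 rise. Of 5 tested H1 genes of the Hist1 cluster on chromosome 13, 4 fell and 1 rose, and the median was −2.24 (−1.79 with spike-in scaling). For Hist1h1b the signals were −2.42, −2.12 and −2.32 in the Magic-F1 samples and 2.22, 2.14 and 2.17 in the controls. The Magic-F1 arrays were all low and the groups lay far apart, a 22.01-fold fall (log2 −4.46, SE 0.085, adjusted p 8.75e-08, limma), or −3.61 with normexp background. The probe lies at chr13:21871923-21871982 (mm9, as given in the files). Hist1h1a read −4.59, −4.25 and −5.40 in the Magic-F1 samples, of which 2 were well above background, and −0.57, −0.65 and −0.30 in the controls. Its change of −4.24 (SE 0.30, adjusted p 1.89e-05) was −2.11 with normexp background.

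Hist1h1e, a linker histone made in most cell types, was −0.12, −0.04 and −0.03 in the Magic-F1 samples and 2.07, 2.07 and 2.42 in the controls. This is a 4.74-fold fall (log2 −2.24, SE 0.11, adjusted p 3.09e-06), without overlap. The other Hist1h1e probe, whose position in the files lies 2320 bases away, went the other way, from −3.69, −3.69 and −3.70 in the controls to −3.08, −2.95 and −2.99 in the Magic-F1 samples (log2 0.69, adjusted p 2.21e-05). That rise was 0.03 with normexp background. Hist1h1d fell by 1.46 on the log2 scale (SE 0.097, adjusted p 1.49e-05), from −0.70, −0.87 and −0.76 to −2.23, −2.07 and −2.40. Its other probe, 1751 bases away, did not pass the test (log2 0.16, adjusted p 0.191) and its groups overlapped.

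Hist1h1c was the only one of the 5 tested H1 genes that rose. It read 4.99, 5.06 and 5.02 in the Magic-F1 samples and 3.56, 3.53 and 3.46 in the controls. All Magic-F1 values lay above all control values, a 2.83-fold rise (log2 1.503, SE 0.049, adjusted p 6.07e-07). The rise was 1.53 with normexp background and 1.96 with spike-in scaling. Hist1h1t, the linker histone of the testis, was not tested.

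The genes of histone H2A fell by widely differing amounts. Of 8 tested replication-dependent H2A genes, 6 fell and 2 rose, and the median was −1.23 (−0.77 with spike-in scaling). Hist1h2ab fell most, from 0.29, 0.30 and 0.96 in the controls to −3.64, −3.54 and −4.00 in the Magic-F1 samples, with no overlap. That is a 19.0-fold fall (log2 −4.25, SE 0.22, adjusted p 4.53e-06), or −2.60 with normexp background. Its probe lies at chr13:23843392-23843451 (mm9).

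The H2A probes at the start of the coding sequence gave nearly the same change under 3 gene names. Hist1h2ai was 1.70, 1.70 and 1.85 in the Magic-F1 samples and 5.27, 5.22 and 5.48 in the controls, an 11.9-fold fall (log2 −3.57, SE 0.087, adjusted p 2.03e-07). Hist1h2ak went from 6.14, 6.09 and 6.26 to 2.56, 2.54 and 2.70 (log2 −3.56, SE 0.071, adjusted p 1.02e-07). The Hist1h2af probe of this set fell by 3.53 on the log2 scale (SE 0.061, adjusted p 6.56e-08). These probes share 26 to 40 bases in a row with each other, so the array does not separate the 3 genes.

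The probes towards the end of the H2A coding sequence fell less. Hist1h2af was 7.63, 7.65 and 7.74 in the Magic-F1 samples and 8.86, 8.95 and 9.02 in the controls by its brighter probe, a 2.42-fold fall (log2 −1.27, SE 0.061, adjusted p 3.27e-06). This probe lies 308 bases from the one that fell by 3.53, in the same gene. Hist1h2aa, named for the H2A of male germ cells, went from 8.90, 8.91 and 9.14 to 7.75, 7.77 and 7.90 (log2 −1.18, SE 0.084, adjusted p 2.12e-05). Its probe shares 44 bases in a row with that of Hist1h2af, so a signal from Hist1h2af could reach it. Hist2h2ac, from the cluster on chromosome 3, was 8.05, 8.01 and 8.07 in the Magic-F1 samples and 8.66, 8.79 and 8.85 in the controls (log2 −0.72, SE 0.062, adjusted p 5.55e-05). It was not called with quantile normalization (log2 −0.09). The changes of Hist1h2af, by its brighter probe, and Hist1h2aa were −0.62 and −0.55 with that normalization.

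Both H2A genes that rose lie outside the Hist1 cluster. Hist2h2aa1, on chromosome 3, went from 0.86, 0.80 and 0.97 in the controls to 1.93, 2.13 and 2.25 in the Magic-F1 samples (log2 1.22, SE 0.093, adjusted p 2.92e-05). Hist3h2a, on chromosome 11, went from 1.47, 1.41 and 1.50 in the controls to 2.47, 2.34 and 2.43 (log2 0.95, SE 0.055, adjusted p 7.61e-06), and its other probe rose by 1.52. The Magic-F1 values of both genes lay above all control values. The Hist2h2aa1 probe is placed at chr3:96049502-96049561 and that of Hist2h2ac, which fell, at chr3:96049751-96049810, both on the plus strand (mm9). Placed this close, they may read the same gene under different names, which was not tested. The other Hist2h2ac probe, placed 25283 bases away on the minus strand, fell by 0.74. Hist1h2ac, Hist1h2ae and Hist1h2al were not tested.

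Histone H2B, the partner of H2A in the nucleosome, went the other way. Of 8 tested H2B genes, 7 rose and 1 fell, and the median was 1.19 (1.65 with spike-in scaling), or 1.18 when genes not above background in the control group are set at their bound. Of all tested genes, 40.6% were called higher. The 7 include Hist1h2bk, Hist1h2bm and Hist3h2bb, whose probes share sequence, and Hist1h2bc, which did not rise with normexp background. They are therefore not 7 separate rises. Hist2h2bb was −0.53, −0.42 and −0.49 in the Magic-F1 samples, and in the controls, not well above background in any sample, it read −6.98, −6.30 and −6.21. It was at least 22.6-fold higher (fitted log2 6.01, adjusted p 7.59e-07), where the bound is the mean of the bright group against the dimmest signal that counts as above background on each array, or the gene's own if higher. With normexp background the change was 2.15. The probe lies at chr3:96082754-96082813 (mm9).

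The other H2B genes that rose had fitted changes between 1.11 and 1.24 on the log2 scale. Hist1h2bm went from 5.01, 5.01 and 5.06 to 6.21, 6.20 and 6.25, a 2.29-fold rise (SE 0.043, adjusted p 9.16e-07). Hist1h2bk went from 5.04, 5.01 and 5.04 to 6.08, 6.15 and 6.19 (log2 1.11, SE 0.047, adjusted p 1.85e-06), and its other probe, 66 bases away, rose by 1.17. Hist3h2bb rose by 1.24 (SE 0.047, adjusted p 1.19e-06). The probes of these 3 genes share at least 26 bases in a row, as printed above, and cannot be read as 3 separate rises.

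Hist1h2ba, the H2B of male germ cells, was 3.80, 3.75 and 3.85 in the Magic-F1 samples and 2.59, 2.57 and 2.64 in the controls (log2 1.20, SE 0.049, adjusted p 1.63e-06). The groups were far apart, and its probe shared fewer than 20 bases in a row with any other tested histone probe. It did share 13 or 14 bases in a row with the probes of Hist1h2bk, Hist1h2bm and Hist3h2bb, which changed alike. The dimmer Hist1h2bk probe read 3.71, 3.72 and 3.74 in the Magic-F1 samples and 2.52, 2.60 and 2.54 in the controls. Whether the signal comes from Hist1h2ba alone was not tested. Hist2h2be rose by 1.16 (SE 0.073, adjusted p 1.14e-05), or 0.67 with normexp background. Hist1h2bc was not well above background in any control sample and was at least 1.51-fold higher (adjusted p 0.000506), but with normexp background its change was −0.06 and was not called. The only H2B gene that fell was Hist3h2ba, from −1.67, −1.52 and −1.499 to −2.45, −2.52 and −2.41 (log2 −0.90, SE 0.066, adjusted p 2.39e-05). Hist1h2be and Hist1h2bp were not tested.

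All 3 genes of histone H3 fell, with a median of −0.74 (−0.29 with spike-in scaling). Hist1h3a read −7.05, −6.11 and −6.92 in the Magic-F1 samples, not well above background in any sample, and −4.06, −3.66 and −3.52 in the controls. It was at least 2.94-fold lower (adjusted p 8.92e-05), and its change was −0.62 with normexp background. Hist2h3c1 was 7.14, 7.16 and 7.11 in the Magic-F1 samples and 7.86, 7.88 and 7.90 in the controls (log2 −0.74, SE 0.043, adjusted p 7.41e-06). Its change was only −0.17 with quantile normalization and −0.29 with spike-in scaling. Hist1h3d went from 6.28, 6.24 and 6.37 to 5.70, 5.66 and 5.66 (log2 −0.62, SE 0.052, adjusted p 4.81e-05), and was not called with spike-in scaling (log2 −0.17).

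The genes of histone H4 split. Of 6 tested genes, 2 fell, 2 rose and 2 did not pass the test, with a median of −0.24 that became 0.22 with spike-in scaling. Hist1h4i rose most, from 2.68, 2.68 and 2.90 in the controls to 5.47, 5.45 and 5.52 in the Magic-F1 samples, with no overlap. This is a 6.65-fold rise (log2 2.73, SE 0.073, adjusted p 2.93e-07), and it was 2.74 with normexp background. The position given for the Hist1h4i probe, chr13:22132449-22132455 (mm9), covers only a small part of the probe's length. Whether its signal comes from the Hist1h4i message was not tested, so the rise is given by the array's name for the probe. Hist4h4, which stands apart from the other clusters on chromosome 6, went from 1.62, 1.64 and 1.92 to 2.85, 2.92 and 2.93 (log2 1.17, SE 0.091, adjusted p 3.22e-05).

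The remaining H4 genes changed little by the probes that stand for them. Hist1h4a fell by 0.54 on the log2 scale (SE 0.090, adjusted p 0.00146), from 4.62, 4.64 and 4.93 to 4.17, 4.21 and 4.19, and was not called with spike-in scaling (log2 −0.083, adjusted p 0.498, limma). Hist2h4 fell by 0.30 (SE 0.11, adjusted p 0.0372), and this call was lost when any 1 of the Magic-F1 arrays was left out (adjusted p 0.0773 to 0.0889). It was also lost with quantile normalization (−0.17) and with the arrays scaled to their medians (−0.17), and the sign turned with spike-in scaling (0.16). Hist1h4d and Hist1h4f, whose probes share 50 bases, read −0.24 each (adjusted p 0.0728 and 0.0725) and were not called, with 0.22 each on the spike-in scale. A probe for Hist1h4d that lies 158 bases away in the same coding sequence fell much more, from 3.54, 3.49 and 3.89 in the controls to 0.98, 1.05 and 0.98 in the Magic-F1 samples (log2 −2.64, SE 0.11, adjusted p 1.87e-06).

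**Figure D2:**
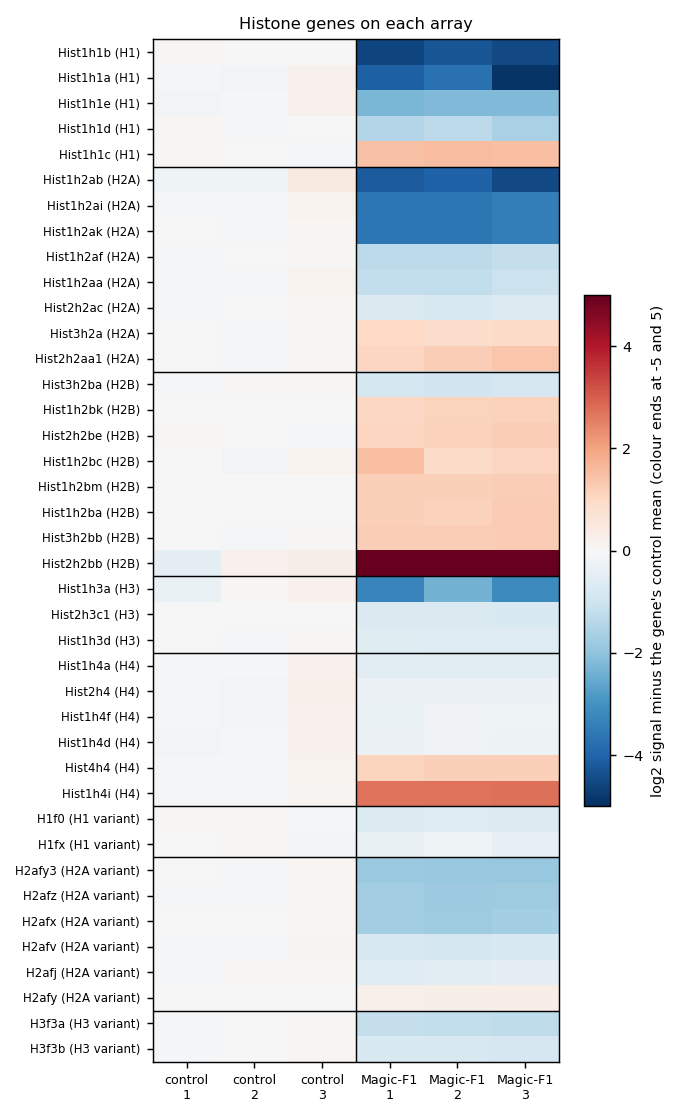
Signal of each tested histone gene on each of the 6 arrays, as log2 signal minus the gene's mean in the controls; red is higher, blue is lower, and colours end at −5 and 5. Rows are grouped by histone type and columns by group. Within each row the 3 Magic-F1 arrays lie on the same side of the controls, darkest blue for Hist1h1b, Hist1h1a and Hist1h2ab and darkest red for Hist2h2bb. Their shades differ in dim genes such as Hist1h1a and Hist1h3a (SD 0.59 and 0.51 among Magic-F1 arrays).

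Of the variant genes of H2A, 5 fell and 1 rose by the probes that stand for them. H2afx encodes H2A.X, which is phosphorylated around DNA breaks, and read 4.54, 4.49 and 4.58 in the Magic-F1 samples and 6.25, 6.27 and 6.32 in the controls. It fell 3.35-fold (log2 −1.74, SE 0.048, adjusted p 3.15e-07), with the groups far apart. H2afz encodes H2A.Z, found at promoters and enhancers, and went from 7.85, 7.88 and 8.02 to 6.18, 6.10 and 6.13 (log2 −1.78, SE 0.062, adjusted p 8.12e-07). Its near relative H2afv went from 7.10, 7.09 and 7.29 to 6.36, 6.27 and 6.41 (log2 −0.82, SE 0.075, adjusted p 7.50e-05).

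H2afy encodes macroH2A1, a histone with a large extra domain that is found on silent chromatin. It was the only variant gene that rose by the probe that stands for it, from 1.56, 1.57 and 1.54 to 1.82, 1.85 and 1.89 (log2 0.30, SE 0.044, adjusted p 0.00078). Its other probes rose by 0.56 and 1.14, so all 3 went the same way. H2afy3, which RefSeq lists as a transcribed pseudogene, went from −0.85, −0.87 and −0.72 to −2.65, −2.71 and −2.70 (log2 −1.88, SE 0.056, adjusted p 4.32e-07), or −1.20 with normexp background. H2afy2 was not tested.

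H2afj, which encodes an H2A known to build up in senescent cells, gave opposite answers by its 2 probes. The brighter probe, which shares 29 bases in a row with those of Hist1h2aa and Hist1h2af, went from 8.88, 9.04 and 9.05 to 8.33, 8.43 and 8.49 (log2 −0.58, SE 0.071, adjusted p 0.000318). The other, 1238 bases away, went from −0.36, −0.31 and −0.43 to 0.31, 0.40 and 0.30 (log2 0.70, SE 0.055, adjusted p 3.47e-05). The fall by the brighter probe was not called with quantile normalization (0.04) or with spike-in scaling (−0.12), while the rise was 0.69 and 1.16 on those scales.

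Both genes of the replacement histone that takes the place of H3 outside S phase fell by the probes that stand for them. H3f3a read 7.47, 7.41 and 7.40 in the Magic-F1 samples and 8.57, 8.66 and 8.73 in the controls (log2 −1.23, SE 0.058, adjusted p 2.91e-06), and its other probes gave −1.16 and −1.28. With quantile normalization the probe that stands for H3f3a changed by −0.60. H3f3b went from 8.29, 8.33 and 8.46 to 7.59, 7.58 and 7.53 (log2 −0.80, SE 0.061, adjusted p 2.96e-05). This call was lost with quantile normalization (log2 −0.14). The other tested H3f3b probe changed by −0.21 (adjusted p 0.0379), which turned to 0.25 with spike-in scaling and 0.41 with quantile normalization, so it has no stable direction.

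The variant linker histones fell as well. H1f0, known to accumulate in cells that stop dividing, went from 3.84, 3.85 and 3.67 to 3.10, 3.14 and 3.10 (log2 −0.67, SE 0.063, adjusted p 8.12e-05), and its other tested probe fell by 0.92. H1fx was −1.23, −1.11 and −1.29 in the Magic-F1 samples and −0.84, −0.78 and −1.004 in the controls (log2 −0.33, SE 0.081, adjusted p 0.00804). The call was lost with the arrays scaled to their medians (−0.21) and the sign turned with spike-in scaling (0.12). The other H1fx probe fell by 1.80 (SE 0.095, adjusted p 5.07e-06).

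**Figure D3:**
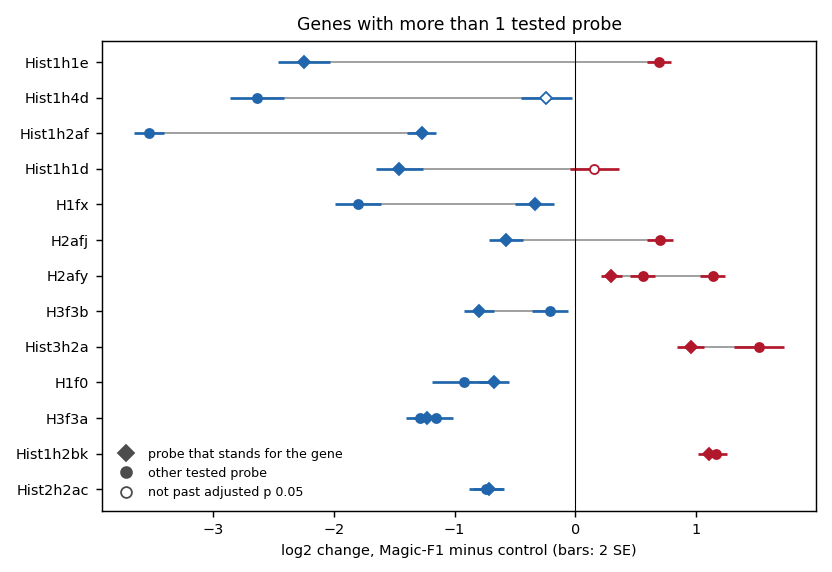
Log2 change, Magic-F1 minus control, of every tested probe of the 13 histone genes with more than 1, with bars of 2 SE. Diamonds mark the probe that stands for the gene, red is above 0 and blue below, and open symbols did not pass adjusted p 0.05; the probes of Hist1h1e and H2afj were called in opposite directions.

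Whether a change belongs to 1 gene depends on what the probe shares with others. Of 13 histone genes with several tested probes, 2 (Hist1h1e and H2afj) were called in both directions. Among pairs of tested probes for different genes, 13 shared at least 20 bases in a row, and their log2 changes differed by a median of 0.058. The 118 pairs of replication-dependent probes of 1 type that shared fewer bases differed by a median of 2.27, with a range from 0.0025 to 6.91. Some of these pairs moved alike without such a run. Those among Hist1h2ba, Hist1h2bc, Hist1h2bk, Hist1h2bm, Hist2h2be and Hist3h2bb differed by only 0.0025 to 0.091. The exceptions among the sharing pairs were H2afj against Hist1h2aa and Hist1h2af (0.60 and 0.70) and the shared 21 bases of Hist1h4a and Hist1h4d, whose probes differed by 2.10. Pairs share genes and arrays and are not independent, so these values are a description.

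**Figure D4:**
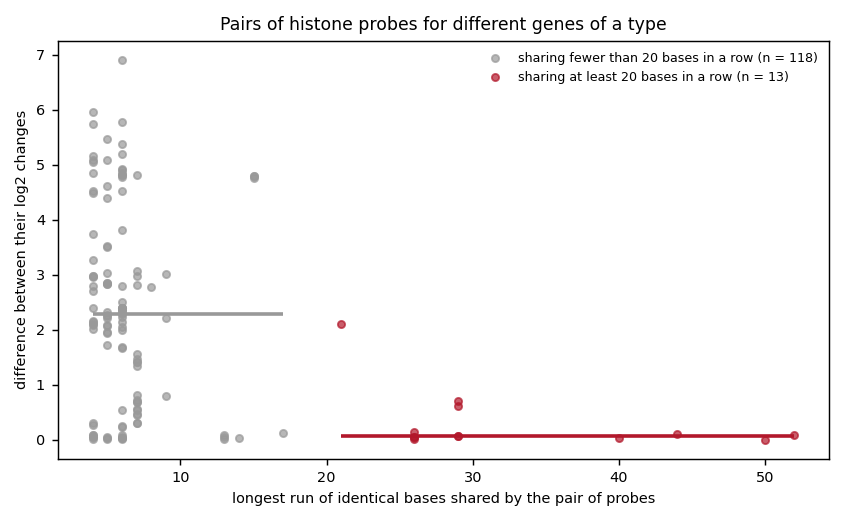
Each point is a pair of tested histone probes for different genes of a type: the longest run of identical bases they share (x axis, bases) against the difference between their log2 changes (y axis). Horizontal lines are medians, 2.27 for 118 pairs sharing fewer than 20 bases (grey) and 0.058 for 13 pairs sharing 20 or more (red). The grey pairs are of replication-dependent genes only, while the red pairs include the variant gene H2afj.

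Few probes hold the letters known from the ends of histone messages. The stem-loop that ends replication-dependent histone messages, searched as a 6-base stem that begins with GG and a 4-base loop that begins with TTT, lay whole in 1 of 68 histone probes. Capitals mark the stem-loop.
Hist1h3a: ccaaaGGCTCTTTTCAGAGCCaca
This is the H3 gene that was not well above background in any Magic-F1 sample. The signal AATAAA, which precedes the poly(A) tail of ordinary messages, was found on the sense strand of 2 of 68 histone probes, against 4.78% of all 41174 probes. The one of these that was tested stands for Hist2h2bb, the histone gene that rose most, and capitals mark the signal.
Hist2h2bb: gtcagtttgAATAAAgacagagaa
A match is a description of the letters and does not show which messages were present.

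Promoters from RefSeq (GRCm38.p6), from 250 bases before to 50 after each gene's start, were found for 39 of the 47 histone genes. The motifs searched on both strands were the octamer ATTTGCAT, CCAAT, the TATA box TATAAA, the H1 promoter element AACACA, the E2F site TTTCGCGC and the cyclic AMP element TGACGTCA. The octamer, bound by Pou2f1 (Oct-1) in H2B promoters, was in 5 of 7 H2B and 6 of 10 H2A promoters and in 1.97% of all genes with a promoter. All 4 H2B genes with the octamer that were tested rose, and the tested H2B gene with a promoter and no octamer, Hist3h2ba, fell. Hist1h2bc, Hist2h2be and Hist3h2bb also rose, but no promoter was found for them, so whether they hold the octamer is not known. With 1 gene on the side without it, the octamer is not tied to a direction. Among H2A genes, those with it (3 lower, 1 higher) and those without it (3 lower, 1 higher) split alike. Of the 4 octamer genes of H2B, Hist1h2bk and Hist1h2bm have probes that share sequence. CCAAT was in 27 of 30 replication-dependent promoters and 41.1% of all genes. TTTCGCGC was in 3 of 30 and 0.374% of all genes, and TGACGTCA in 1 of 30 and 2.03%.

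The tested H1 genes with and without the letters TATAAA went opposite ways. TATAAA was in the promoters of Hist1h1a, Hist1h1b, Hist1h1d and Hist1h1e, which fell, and not in that of Hist1h1c, which rose; 15.7% of all genes have it. The Hist1h1c promoter, printed below, holds a run of alternating T and A. AACACA was in 5 of 6 H1 promoters and 19.6% of all genes. The 150 bases before the start are shown for the H1 gene that fell most and the one that rose, with motifs in capitals.
Hist1h1b: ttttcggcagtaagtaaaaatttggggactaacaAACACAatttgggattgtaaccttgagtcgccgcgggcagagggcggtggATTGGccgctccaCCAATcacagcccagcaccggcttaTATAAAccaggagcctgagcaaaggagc
Hist1h1c: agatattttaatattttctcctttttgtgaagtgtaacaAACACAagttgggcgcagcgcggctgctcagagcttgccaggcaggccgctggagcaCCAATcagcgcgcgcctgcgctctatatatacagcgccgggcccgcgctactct
They lie at chr13:21780626-21780775 on the minus strand and chr13:23738657-23738806 on the plus strand (GRCm38.p6). AACACA starts 116 and 111 bases before the start and CCAAT 53 and 54 bases before it. With 5 genes this ties no motif to a direction, and no match says only that these letters are not in the window.

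Hist1h2aa and Hist1h2ba are divergent neighbours whose starts lie 281 bases apart, and the 220 bases common to their windows are shown with motifs in capitals, at chr13:23934187-23934406, plus strand.
Hist1h2aa: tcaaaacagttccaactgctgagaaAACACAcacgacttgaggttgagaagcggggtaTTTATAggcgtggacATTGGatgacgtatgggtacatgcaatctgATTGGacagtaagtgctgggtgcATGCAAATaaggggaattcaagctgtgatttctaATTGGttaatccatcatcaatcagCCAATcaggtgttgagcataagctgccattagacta
The stretch holds 1 octamer and 4 CCAAT motifs, counted on both strands. The probe named for Hist1h2aa fell by 1.18 and that for Hist1h2ba rose by 1.20, with the limit that the former matches Hist1h2af over 44 bases.

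Genes that help histone messages and proteins along were followed in lists. The counts of each list are to be read beside all tested genes, of which 47.7% were called lower and 40.6% higher. Of 27 tested genes of histone message 3′ end processing and decay, 17 were lower, 8 higher and 2 not called, with a median of −0.35 (0.10 with spike-in scaling). Slbp, which binds the stem-loop, read 2.91, 2.85 and 2.83 in the Magic-F1 samples and 3.57, 3.57 and 3.57 in the controls (log2 −0.71, SE 0.044, adjusted p 1.08e-05). The largest falls were those of Cstf2, a cleavage factor subunit (−2.97), and Lsm11, a protein of the U7 particle that cuts histone messages (−2.47). Papola, the poly(A) polymerase (−1.57, with other probes at −0.39 to −0.23), and Cstf3 (−1.27) fell, and the terminal nucleotidyltransferase Papd5 rose (1.24).

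Of 19 tested regulators of histone transcription, 12 were lower and 7 higher, with a median of −0.38 (0.08 with spike-in scaling). Ccne2 (−4.85, other probe −3.82) and Ccne1 (−2.33), the E cyclins that activate the histone regulator Npat at the start of S phase, fell. Ccne2 was −3.28 with normexp background. The E2F factors split: E2f7 (−2.74, or −1.69 with normexp background), E2f8 (−2.37, or −1.37) and E2f2 (−2.33) fell, while E2f1 rose by 0.89 (other probe 0.59) and E2f3 by 0.43, with its other probes between −1.14 and −1.11. Among the others that rose were Cramp1l (1.43), Cdk9, the kinase of elongation factor P-TEFb (0.98), and Pou2f1, which binds the octamer (1.01). Only 1 of 3 control arrays read Pou2f1 well above background, and it changed by 0.04 with normexp background. Npat was not tested.

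Of 34 tested histone chaperones and deposition factors, 23 were lower, 9 higher and 2 not called, with a median of −0.65 (−0.19 with spike-in scaling). The chaperones of new histones fell: Nasp (−1.87, other probe −4.86), Chaf1a (−1.25) and Chaf1b (−1.56), subunits of the CAF-1 complex, and Asf1a (−2.48, other probe −0.77). Npm3 (−2.74), Hjurp, the chaperone of the centromere histone (−2.39), and Npm1 (−2.24) fell as well. Rbbp4, shared by CAF-1 and other complexes, fell by 2.92, but its other probes ranged from −6.58 to 0.38. Hira, which deposits the replacement H3, fell by 0.38 (adjusted p 0.0012, limma), and this was 0.08 with spike-in scaling. Genes of other members of its complex rose, Cabin1 by 1.71 (other probe 0.16), Ubn2 by 1.20 and Ubn1 by 0.76. Others that rose were Ep400 (1.33), a remodeller that helps to place H2A.Z, Ino80 (0.88) and Tonsl (0.73), which reads new H4. Daxx, read at 4.46, 4.52 and 4.55 against 4.52, 4.54 and 4.48, was not called (adjusted p 0.94, limma). Its partner Atrx was not well above background in any control sample and at least 1.99-fold higher, or 0.09 in log2 with normexp background. Cenpa, the centromere histone, and the other 4 histone genes on the array outside the naming rule were not tested.

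Of 9 tested HMG proteins, abundant non-histone proteins of chromatin, 7 were lower, 1 higher and 1 not called, with a median of −1.68 (−1.22 with spike-in scaling). Hmgb3 (−3.79), Hmgn2 (−2.63), Hmgb2 (−2.57), Hmgb1 (−1.74) and Hmgn1 (−1.68) fell.

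**Figure D5:**
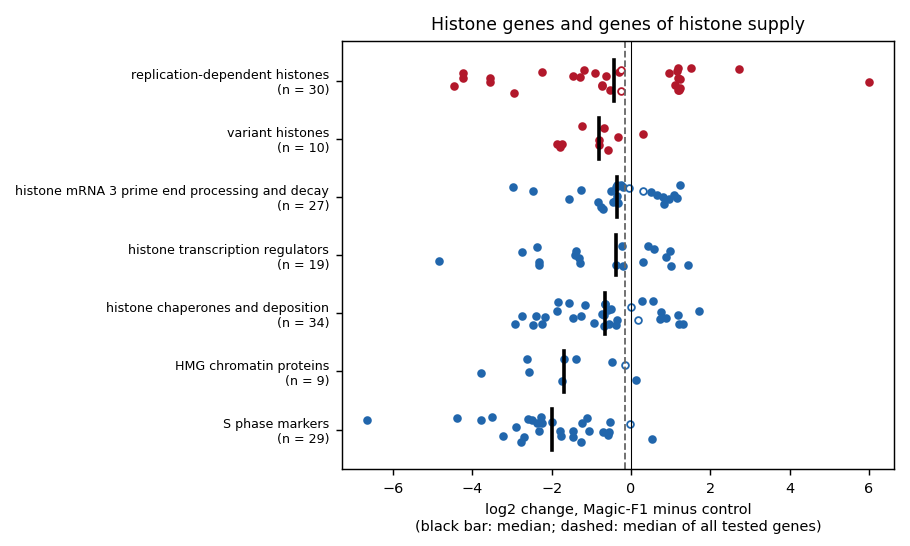
Log2 change, Magic-F1 minus control, of replication-dependent and variant histone genes (red) and of genes in 5 lists (blue); each point is a gene, open points did not pass adjusted p 0.05, black bars are medians and the dashed line is the median of all tested genes. The replication-dependent genes spread from −4.46 to 6.01 around a median of −0.42, while S phase markers had a median of −1.99.

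Markers of S phase and of several cell types moved together with these changes, and their part in the histone results was not tested. Of 29 tested S phase genes, 27 were lower, 1 (Cdt1) higher and 1 (Pcna) not called, with a median of −1.99 (−1.53 with spike-in scaling). The 5 lowest changes were those of Rrm2, a subunit of ribonucleotide reductase (−6.66, or −4.46 with normexp background), Tyms (−4.38), Tk1 (−3.78), Prim1 (−3.51) and Cdc45 (−3.23). Of the Magic-F1 arrays, 2 of 3 read Cdc45 well above background, and its change was −1.32 with normexp background, a smaller fall than the −2.66 of Rfc4 on that scale. Satellite cell and myoblast markers were lower in 9 of 9 (summed signal relative to the 75th percentile 60.4 to 62.0 in the Magic-F1 samples and 614 to 646 in the controls), and the satellite cell factor Pax7 was not well above background in any Magic-F1 sample. Macrophage markers were higher in 10 of 11 (1380 to 1449 against 421 to 448), with a median log2 change of 4.89. The largest signal in the macrophage sum of the controls is that of Lyz2 (mean log2 8.48), the marker that was lower (−0.30), while its other probe rose by 2.97. Adipocyte markers were higher in 8 of 8 (470 to 499 against 59.7 to 66.6). Neutrophil and granulocyte precursor markers were lower in 9 of 9 (0.280 to 0.295 against 587 to 633), with 5 of them not above background on any Magic-F1 array. Endothelial markers were lower in 6 of 7 (0.221 to 0.254 against 8.32 to 8.73) and erythroid markers in 4 of 5 (5.74 to 6.16 against 9.58 to 11.4), with a median log2 change of −5.52. The largest signal in the erythroid sum of the Magic-F1 samples is that of Epor (mean log2 2.55), the marker that rose (2.29), while Hbb-b1 was at least 133-fold lower and Hba-a1 and Hba-a2 changed by −5.91 and −5.52.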

How the data were processed

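Spot intensity is the processed signal of Agilent Feature Extraction, with background already subtracted, per the file headers. The authors also deposited a table of log2 values, which equals the log2 processed signal (within 1e-06) for 4 of 6 arrays and differs for both arrays numbered 1. The scanner files were used. From each log2 processed signal the 75th percentile of its array was subtracted, outlier spots (59 to 89 per array) were left out and spots of a probe averaged. Tested probes were compared with limma 3.58.1 (lmFit, eBayes, R 4.3.3), and the model held group alone. A gene stands for its tested probe with the highest mean, and 4 probes with a missing value were left out. Slide 1 held replicates 1 and 3 of each group and slide 2 held replicate 2. On simulated arrays with 200 of 21186 probes changed, the test recovered 56%, 80% and 92% of changes of log2 0.5, 1 and 2, with 6 false calls. Far more probes were called on the real arrays, so these rates do not describe the test there. Probe positions are on mm9, and all 40 tested histone genes had a RefSeq symbol. The histone genes and all lists were chosen with earlier results of these data known. Variant genes were all named. For each replication-dependent type, the 4 largest changes, the 2 highest levels and calls against the type's median were named, and from each list up to 5 calls and 9 others, beside list genes that rose or weigh most in a marker sum, which were added after their values were seen. Motifs and the 20-base limit for shared sequence were chosen after the values were seen. Alternatives covered background, scaling, filters, probes, slide, variance model, the deposited table and leaving out each array.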

Additional observations from a re-analysis of the deposited data

How the results depend on the processing

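The median change of the replication-dependent genes (−0.42) was −0.38 with normexp background, −0.13 with quantile normalization, −0.29 with each array's median, 0.037 with spike-in scaling, −0.29 with no filter and −0.48 within slide 1. It was −0.30 with each probe counted, −0.58 with the median of a gene's probes and, chosen after seeing the data, −0.54 with 1 gene per group of probes that share sequence. Leaving out 1 array in turn gave −0.48 to −0.31 (counts 15 to 17 lower and 12 higher). The median of the variant genes (−0.81) was −0.52 with quantile normalization, −0.68 with each array's median, −0.35 with spike-in scaling and −0.94 with the median of a gene's probes, and −0.84 to −0.75 with 1 array left out (9 lower, 1 higher each time). With each probe counted, 14 variant probes were lower and 4 higher, and with the median of a gene's probes 2 variant genes were higher.

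Over 716 pairs of a tested gene and an alternative, 690 kept direction and call, 14 lost the call, 3 gained it and 9 turned sign, in 6 genes. The sign turned for Hist1h2bc with normexp background (−0.062), for Hist1h4d (0.0077) and Hist1h4f (0.029) with quantile normalization, and for Hist1h4d (0.22), Hist1h4f (0.22), Hist2h4 (0.16) and H1fx (0.12) with spike-in scaling. H2afj turned with quantile normalization (0.043) and with the median of its probes (0.064). The cause was not tested. Deviations from the group means were weakly correlated between same-numbered samples (−0.0029, 0.11 and 0.069), against −0.11 to 0.048 for the other pairs. With means of only 3 arrays, this cannot settle whether replicate numbers pair the samples. The replicate block changed the call of 0 of 40 histone genes. It gave 16 and 12 replication-dependent and 9 and 1 variant genes lower and higher, and 7117 lower and 6015 higher among all genes. Dim probes limit the folds of Hist1h1a, Hist1h1b, Hist1h2ab, Hist2h2bb, Hist1h2bc and Hist1h3a.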
